A study of Mus musculus with 72 samples.

Results

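Dimethylation of lysine 27 on histone H3 (H3K27me2) was compared between mice susceptible and mice resilient to chronic social defeat, at the sites where both groups had been called different from controls. The sites are the regions of the authors' susceptible table and of their resilient table that overlap by at least 1 bp. Of 2078 susceptible regions 416 overlapped a resilient region, and of 4659 resilient regions 424 overlapped a susceptible one, which gave 426 pairs at 414 separate loci. Both tables are against control, so the members were chosen by measured differences from control, the authors' windowed read counts and p-values. The direction of each change is therefore a description and carries no test here. Of the 426 pairs, 231 were higher than control in both groups, 180 were lower in both and 15 were changed in opposite directions.

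The mark was profiled by CUT&RUN, in which an antibody guides a nuclease to cut out the DNA around a histone modification, in nuclei of the nucleus accumbens. The mice were wild-type males. They had gone through chronic social defeat stress and were labelled susceptible (4 libraries) or resilient (4 libraries), or they were the controls of that experiment (4 libraries). The same 4 control libraries enter both tables. The labels do not say whether a library is 1 animal or a pool. The p-values computed here between susceptible and resilient libraries therefore measure only the spread between libraries, which may be technical. The authors' p-values against control, which chose the members, pool the libraries of a group and do not include that spread. H3K27me2 is laid down by Polycomb repressive complex 2, whose catalytic subunits Ezh1 and Ezh2 add methyl groups to lysine 27 in steps. It covers much of the silent and intergenic genome, keeps the same lysine from being acetylated and marks stretches without active enhancers. The accumbens is part of the reward circuit and is widely studied in social defeat, after which some mice avoid unfamiliar mice (susceptible) and some do not (resilient).

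Depth per library ran between 17.1 and 40.6 reads per 1000-bp bin in the susceptible libraries, between 24.1 and 32.2 in the resilient libraries and between 10.6 and 40.3 in the controls as the header of the resilient table gives them. Control library 52 was the shallowest of the 12. Values below are the authors' normalised reads, that is, reads in a region divided by a constant of the library. Of the windows they adjusted over, the authors listed 4.30% in the susceptible table (2.98% higher and 1.32% lower than control). In the resilient table they listed 8.84% (7.03% higher and 1.81% lower). The members of the pairs are taken from those lists, so nothing is read from their counts against these shares.

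Most of the sites lay far from genes. By pair, 354 of 426 were intergenic, 48 were in a gene body and 24 lay within 1000 bp of a transcription start of a protein-coding gene. The median distance to the nearest start was 311008 bp. Of the 24 pairs near a start, 16 were below IgG, the antibody control for background cutting, in all groups. Among these 16 were 6 mitochondrial pairs. Of the 414 loci, 63 were in a protein-coding gene, 50 had a start within 50000 bp and 301 had neither. RefSeq promoters (build GRCm38.p6, 250 bases before to 50 after a start) overlapped the shared bases of a pair at 12 entries from 10 genes. They are shown because they are the places where the common sites touch annotated starts: 1 of a site higher in both groups (Prl7d1, a placental prolactin-family hormone) and 3 of sites lower in both. The last 3 belong to Sprr2a2, a small proline-rich protein of the cornified skin, to Duxf3, a copy of the Dux homeobox family active in early embryos, and to the predicted gene Gm40237. The site at Gm40237 was below IgG in all groups, and the others shown were not. Capitals mark CG dinucleotides, the sites of DNA methylation in vertebrates.
Prl7d1 promoter, chr13:27716688-27716987, minus strand: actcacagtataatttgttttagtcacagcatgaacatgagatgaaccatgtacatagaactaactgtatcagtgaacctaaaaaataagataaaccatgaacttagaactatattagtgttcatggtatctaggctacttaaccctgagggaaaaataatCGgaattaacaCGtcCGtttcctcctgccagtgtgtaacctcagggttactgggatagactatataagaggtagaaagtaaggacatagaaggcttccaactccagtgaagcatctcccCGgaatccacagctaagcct
Sprr2a2 promoter, chr3:92250397-92250696, plus strand: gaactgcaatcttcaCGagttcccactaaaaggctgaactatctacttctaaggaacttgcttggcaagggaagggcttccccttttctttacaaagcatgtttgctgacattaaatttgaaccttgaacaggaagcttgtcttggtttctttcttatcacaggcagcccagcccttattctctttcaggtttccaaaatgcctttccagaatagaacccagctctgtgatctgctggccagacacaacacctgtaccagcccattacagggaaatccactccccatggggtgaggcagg
Duxf3 promoter, chr10:58233040-58233339, minus strand: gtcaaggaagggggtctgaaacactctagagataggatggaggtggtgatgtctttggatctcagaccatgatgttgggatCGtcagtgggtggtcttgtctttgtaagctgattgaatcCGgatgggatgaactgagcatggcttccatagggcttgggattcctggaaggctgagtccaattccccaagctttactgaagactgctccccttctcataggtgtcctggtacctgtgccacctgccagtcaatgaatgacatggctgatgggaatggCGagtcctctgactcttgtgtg
Gm40237 promoter, chr4:118547156-118547455, plus strand: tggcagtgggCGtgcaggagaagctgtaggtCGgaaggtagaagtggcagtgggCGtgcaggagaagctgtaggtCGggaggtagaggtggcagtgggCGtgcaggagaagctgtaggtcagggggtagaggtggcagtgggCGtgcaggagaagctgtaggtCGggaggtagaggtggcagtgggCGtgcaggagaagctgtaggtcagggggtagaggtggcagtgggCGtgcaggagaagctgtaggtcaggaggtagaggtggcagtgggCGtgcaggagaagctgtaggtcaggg

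These stretches held 4 CG in Prl7d1, 1 in Sprr2a2, 3 in Duxf3 and 10 in Gm40237, where the median of all 32851 promoters in the RefSeq table was 7. Of all promoters 38.04% held 4 or fewer and 14.1% held 1 or fewer. The Gm40237 stretch is a tandem repeat. A word of 10 bases occurred in it 7 times on the printed strand, and 2.63% of all promoters held a word of that length as often, while none recurred in the Prl7d1, Sprr2a2 and Duxf3 stretches.

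At the 231 pairs higher in both groups, the median change was 0.47 on the log2 scale in susceptible mice and 0.48 in resilient mice. Both are over the same 4 controls and both had to be listed by the authors, so their likeness is no result. Higher regions listed outside the pairs had medians of 0.48 in the susceptible table and 0.49 in the resilient table. The median level was 99.8 normalised reads in susceptible mice against 71.7 in their controls, and 108 in resilient mice against 76.4 in theirs. By library, the median over these pairs was 0.43, 0.51, 0.39 and 0.52 in the susceptible libraries and 0.45, 0.47, 0.51 and 0.49 in the resilient libraries. The controls scattered more widely around their own mean: 0.27 for library 49, -0.29 for library 52, -0.08 for library 55 and 0.03 for library 58 in the susceptible table. Control library 52 was the lowest of the 4 at 147 of the 231 pairs in the susceptible table and at 130 in the resilient table, and control library 49 was the highest at 155 and 167. Without control 52 the median changes were 0.39 in susceptible and 0.41 in resilient mice, and without control 49 they were 0.56 and 0.58. No pair in this class changed sign when any 1 control was left out.

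**Figure D1:**
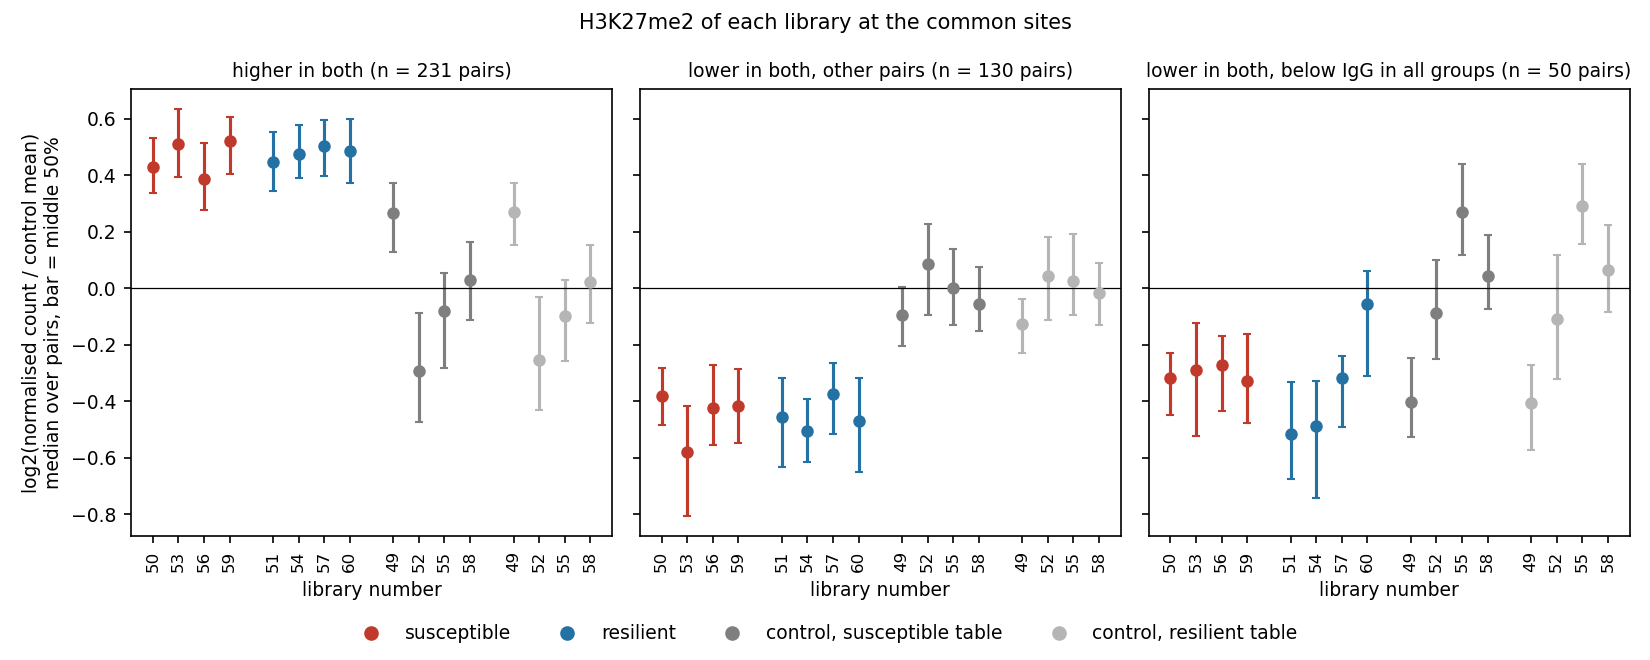
Median log2 of normalised reads over the control mean of the same table, for each susceptible, resilient and control library (numbers on the x axis). Bars give the middle 50% of pairs. The first panel holds the 231 pairs higher in both. The second holds 130 pairs lower in both, and the third the 50 lower in both and below IgG in all groups. Susceptible and resilient libraries lie at 0.39 to 0.52 in the first panel, while in the third panel resilient library 60 lies at -0.06 and control library 49 at -0.40.

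The leading locus by the authors' p-values was in an intron of Ccdc178, a coiled-coil gene, at chr18:22133101-22134700. It had 199, 201, 166 and 182 normalised reads in the susceptible libraries, against 185, 102, 109 and 136 in the control libraries of that row. The resilient libraries had 134, 148, 155 and 122, against 127, 82.1, 72.4 and 100.02 in the controls. Every stressed library was above 3 of the 4 controls, and control 49 overlapped them, with changes of log2 0.49 in susceptible and 0.55 in resilient mice. An intron of Adgrl4, an adhesion receptor of blood vessel endothelium, held the next gene-associated site at chr3:151470301-151471700, with 165, 184, 145 and 174 reads in susceptible and 166, 154, 151 and 149.9 in resilient libraries. Its controls had 151, 107, 101 and 121 in the susceptible row and 136, 89.4, 106 and 108 in the resilient row. All 4 resilient libraries stood above all controls there, and the susceptible libraries overlapped 1 control. Hsd3b3, a steroid-synthesis enzyme of the 3-beta-hydroxysteroid dehydrogenase family, carried a site over an exon at chr3:98759801-98761300. Its susceptible libraries had 126, 139, 135 and 158 against 109, 84.3, 88.5 and 112 in controls, and its resilient libraries 208, 242, 208 and 219 against 166, 116, 159 and 178 in controls. Neither stressed group overlapped the controls at this site, and the changes were 0.50 and 0.50.

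Intergenic sites filled the other leading places. The one at chr16:83279101-83280200 had 109, 108, 108 and 129 normalised reads in the susceptible libraries, against 113, 79.4, 50.6 and 56.8 in the control libraries of that row. Its resilient libraries had 98.9, 108, 90.3 and 104, against 91.5, 62.8, 43.4 and 45.8 in the controls. At chr10:101313301-101313800, susceptible libraries had 74.1, 106, 79.3 and 89.6 reads against 86.5, 32.2, 54.5 and 48.1 in controls, and resilient libraries 126, 113, 125 and 112 against 95.3, 60.4, 66.6 and 66.7 in controls. In both of these, control 49 overlapped the susceptible libraries, and the changes at the second were 0.66 and 0.72. The sites at chr3:132279001-132280200, chr8:59074901-59076000 and chr5:79123301-79124300 were 0.63, 0.66 and 0.54 higher in susceptible mice and 0.56, 0.61 and 0.60 higher in resilient mice.

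**Figure D2:**
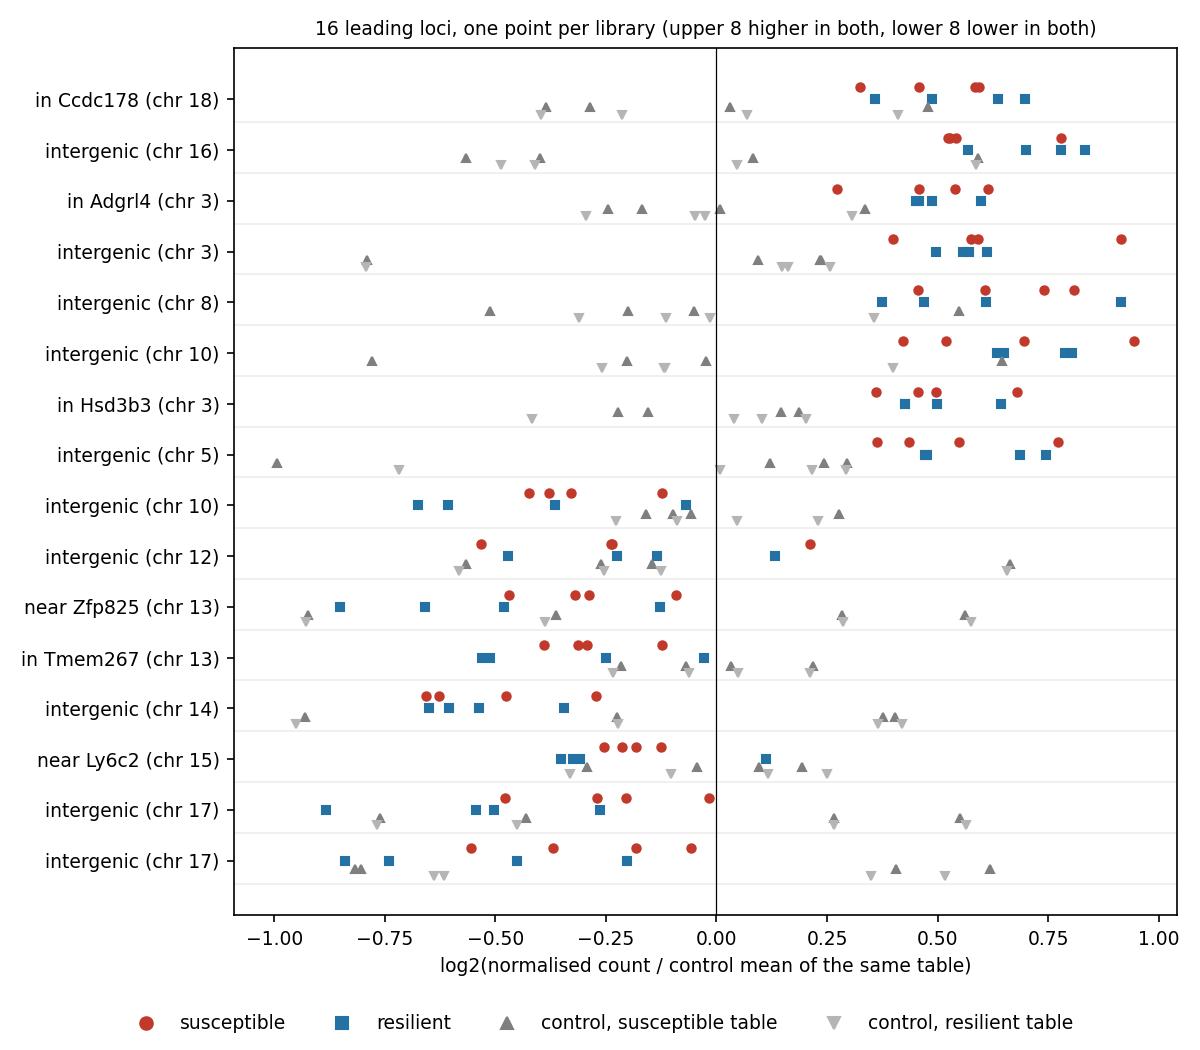
Log2 of normalised reads over the control mean of the same table for each library at the 8 leading loci higher in both (upper) and the 8 leading loci lower in both (lower). Susceptible (circles) and resilient (squares) points overlap at all 16 loci, and at none of the 8 lower loci does either group stand apart from all 4 controls (triangles).

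Named protein-coding genes held 21 of the higher loci in their bodies, 19 in introns and 2 over exons, in 19 genes. Angpt1 and Galntl6 had 2 such loci each. Angpt1, the ligand of the endothelial receptor Tie2, was 0.57 higher in susceptible and 0.51 higher in resilient mice at chr15:42528901-42529600, and 0.50 and 0.51 higher at chr15:42549501-42550600. Galntl6, of the family that starts O-linked sugar chains, was 0.46 and 0.60 higher at chr8:58081701-58082400 and 0.51 and 0.50 higher at chr8:58437601-58438100. Slc7a11, the cystine-glutamate exchanger that helps set extracellular glutamate in the accumbens, was 0.51 and 0.50 higher in susceptible and resilient mice, with 94.5 ± 15.3 and 93.5 ± 18.5 reads against 66.4 ± 14.9 and 66.2 ± 17.9 in controls (SD, n = 4 each). Slco1a1, an organic anion transporter, was 0.45 and 0.49 higher 310 bp from its start, and the vomeronasal receptor gene Vmn1r30 was 0.48 and 0.45 higher over its start.

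The 180 pairs lower in both groups formed 2 sets by their level over IgG, the antibody control that marks background cutting. The authors' table gives each group's enrichment over IgG, and 50 of the 180 pairs were below 1 in susceptible, resilient and control groups alike, against 0 of the 231 higher pairs. Of the other 130, 121 were above IgG in all groups and 9 in some groups only. At these 130, the median change was -0.46 in susceptible and -0.46 in resilient mice. By library their medians were -0.38, -0.58, -0.42 and -0.42 in susceptible and -0.46, -0.51, -0.38 and -0.47 in resilient libraries, and the controls lay between -0.13 and 0.09. At the 50 pairs below IgG the medians were -0.32, -0.29, -0.27 and -0.33 in susceptible libraries and -0.52, -0.49, -0.32 and -0.06 in resilient libraries. The controls there ranged from -0.40 for library 49 to 0.27 for library 55 in the susceptible table. Resilient library 60 was the highest of the 4 resilient libraries at 40 of these 50 pairs, and lay above the control mean at 21. How much the background level, or single libraries, contributed to the lower values at these pairs was not tested.

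Separation of stressed from control libraries followed the same split. At the 231 higher pairs, all 4 susceptible libraries lay apart from all 4 controls at 120, the resilient ones at 127, and both at 91. Those counts were 74, 73 and 55 at the other 130 lower pairs, and 2, 2 and 1 at the 50 below IgG. Over all regions of each table the libraries lay apart at 56.9% of susceptible and 58.6% of resilient regions, and over the members at 47.6% and 49.1%. Below-IgG regions made up 12.5% of the susceptible members and 1.14% of the other susceptible regions, and 13.0% of the resilient members and 0.874% of the others. Leaving out control 55 turned the susceptible change of 8 of the 180 lower pairs positive, and leaving out control 52 turned 4 in susceptible and 5 in resilient mice. Duxf3 was among the first, with a susceptible change of -0.19 that was 0.04 without control 55.

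**Figure D3:**
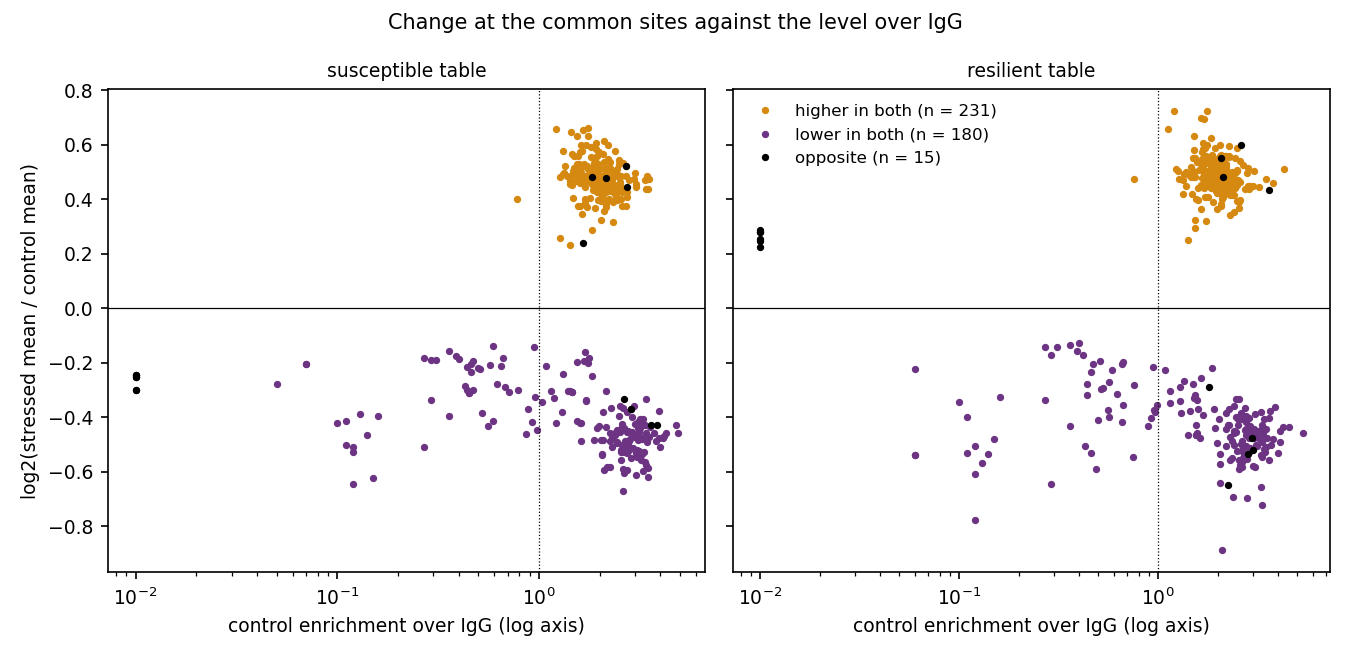
Log2 of the stressed mean over the control mean (y axis) against the control group's enrichment over IgG (log x axis) at each pair, in the susceptible table (left) and the resilient table (right). The pairs lower in both spread from 0.05 to 4.90 times IgG in the susceptible table, the pairs higher in both from 0.78 to 3.53, and the 6 mitochondrial pairs sit at 0.01.

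All 8 leading loci lower in both belonged to the set below IgG, and their read counts were large. The authors' G-test p-value was 0 in both tables at all 8, and near Tmem125 on chromosome 4 as well. Ties were taken in the order of the rows, so these 8 do not rank above the Tmem125 locus or any other locus tied with it. At chr12:3109001-3111000, at the centromere-proximal end of the chromosome, susceptible libraries had 14998, 25129.6, 18394 and 18419 reads and resilient libraries 18181, 15327, 19353 and 23271, against 14654, 34398, 19613 and 18104 in the controls of the susceptible row. Control library 52 alone was higher than every stressed library, and without it the change turned to 0.14 in susceptible and 0.15 in resilient mice. An intron of Tmem267 at chr13:119597901-119603900 had 2607, 2473, 2646 and 2975 reads in susceptible libraries against 2787, 3090.3, 3766 and 3314 in controls, and 1869, 1892, 2269 and 2647 in resilient libraries against 2296, 2584, 3125 and 2794 in controls. The highest susceptible library passed 1 control and the highest resilient library passed 2, with changes of -0.28 and -0.32. The remaining 6 were at chr10:3109101-3111200, near Zfp825 at chr13:74528001-74531500, at chr14:124800901-124803000, near Ly6c2 (a surface antigen of monocytes) at chr15:75085701-75087800, and at chr17:13550101-13553800 and chr17:39842701-39846100. Their changes lay between -0.19 and -0.50 in susceptible mice and between -0.21 and -0.54 in resilient mice. Without control 55 the susceptible changes at the 2 loci on chromosome 17 turned to 0.0098 and 0.0043. The region at chr14:124800901-124803000 lies beyond the last annotated gene of its chromosome. Of all 414 loci 7 did so, on chromosomes 1, 2, 7, 12, 14, 16 and 18, next to the telomere, and each was lower in both groups and below IgG. The largest H3K27me2 counts among the pairs were at Gm10801 on chromosome 2, with 172939 reads in susceptible, 172133 in resilient and 193013 and 189001 in the control means of the 2 rows, at chr2:98661301-98668200, and these too were below IgG. Without control 52 the changes at Gm10801 were 0.13 in susceptible and 0.15 in resilient mice, against -0.16 and -0.13 with it.

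Sfi1, a centrin-binding protein of the centrosome, had 5 loci, more than any other named gene. All were lower in both groups and below IgG, on chr11 between 3126301 and 3186500, with changes of -0.18 to -0.41 in susceptible and -0.20 to -0.59 in resilient mice. None of these separated the stressed libraries from the controls. Drg1, a GTPase gene next to it, had 2 more, with changes of -0.21 and -0.22 in susceptible and -0.20 and -0.29 in resilient mice. The headers label the read inputs as unique. How reads were assigned where sequences repeat is not given further in the sources used here. Over an exon of Chl1, a neural cell adhesion molecule of the L1 family, at chr6:103648201-103650200, susceptible libraries had 9644, 15882, 11769.7 and 11666 reads and resilient libraries 12254, 10580.1, 11808 and 15204, against 9909, 21392, 12333 and 12026 in controls. Control 52 was the highest library and the others overlapped, with changes of -0.18 and -0.13, and Chl1 too was below IgG. Without control 52 the changes at Chl1 turned to 0.0997 in susceptible and 0.15 in resilient mice.

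The other 130 lower pairs had a median of 79.4 reads in susceptible mice against 108 in controls, where the 50 below IgG in all groups had 405 in susceptible mice against 523 in controls. Over both sets, named genes held 28 lower loci in their bodies, 17 in introns and 11 over exons, in 24 genes. Cdk14, a cyclin-dependent kinase of Wnt signalling, had an intronic site at chr5:4843401-4844500 with 82.7, 66.3, 71.5 and 63.04 reads in susceptible and 61.01, 73.7, 57.6 and 81.1 in resilient libraries. Its controls had 86.5, 114, 107 and 95.4 and 83.8, 111, 106 and 93.8. No stressed library reached the controls, with changes of -0.51 and -0.53. Hmcn1, an extracellular matrix protein, was likewise apart from controls at chr1:150657201-150658300, with 61.97 ± 8.42 reads in susceptible and 52.5 ± 10.8 in resilient mice against 86.9 ± 3.15 and 85.2 ± 3.96 in controls (SD, n = 4 each). Cpa6, a carboxypeptidase that trims neuropeptides, had log2 changes of -0.55 and -0.58 in susceptible and resilient mice at chr1:10402701-10404000. The most negative resilient change of all pairs, -0.89, was 19339 bp from the start of Dync1i1, a dynein intermediate chain of neurons, where the susceptible change was -0.59.

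Loci in both directions were carried by 3 genes beside Sprr2a2. Gpc5, a heparan sulfate proteoglycan, was 0.44 and 0.53 higher at chr14:116281301-116282500 and -0.52 and -0.46 at chr14:116114401-116115400 in susceptible and resilient mice. Cnbd1 was 0.47 and 0.50 at chr4:18890901-18891700, and -0.62 and -0.53 at chr4:18950101-18951300. Ccdc178, above, had a further site with -0.46 and -0.45 at chr18:22159601-22160600. Sprr2a2 had 3 loci, of which 1 in an intron and 1 nearby were higher in both groups and 1 over its start was lower. At that start (the promoter printed above), susceptible libraries had 411, 393, 389.6 and 431 reads against 502, 489, 486 and 453 in controls, and resilient libraries 505, 466, 549 and 531 against 566, 560.4, 659 and 599. Both groups lay below all of their controls, while the neighbouring sites overlapped theirs.

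Paralog families were counted after their values had been seen. Prolactin-family genes on chromosome 13 were named at 7 loci, with 4 higher in both groups (near Prl8a8, Prl7d1, Prl4a1 and Prl5a1) and 3 lower in both (near Prl2c2, Prl3d3 and Prl2b1). The Prl7d1 site at chr13:27716801-27717800 had 126, 131, 108 and 124 reads in susceptible and 122, 117, 120.04 and 85.5 in resilient libraries, against 104, 71.9, 99.2 and 82.8 and 94.02, 72.5, 87.8 and 72.9 in controls. Vomeronasal receptor genes were named at 4 loci, 3 higher and 1 lower. Such copies are close in sequence, and whether reads were shared among them was not tested.

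Susceptible and resilient libraries were then set against each other directly, each divided by the control mean of its own row. The change of each group over control chose the pairs, while the difference between the 2 groups was not itself used to choose them. Pairs changed alike entered because both groups passed a limit in the same direction against the same controls, which narrows the difference between them, so the counts below describe the members and do not test whether the groups are alike. Across the 411 pairs changed alike, no pair passed an adjusted p of 0.05 in limma (0%), 5 had an unadjusted p under 0.05 (1.22%), and the 4 susceptible and 4 resilient ratios failed to overlap at 1 (0.243%). Over all 426 pairs they failed to overlap at 13 (3.05%). The median difference over all 426 pairs was -0.01 on the log2 scale, and 340 of the 411 lay within 0.1 of 0. The middle 50% of the 411 ran from -0.04 to 0.04. The 95% interval of a single pair had a median half-width of 0.28, and at 393 of the 411 the whole interval lay within 0.5 of 0, but at only 6 within 0.25. A difference smaller than that half-width was not detectable at a single site. The error of the control means is not part of these intervals.

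**Figure D4:**
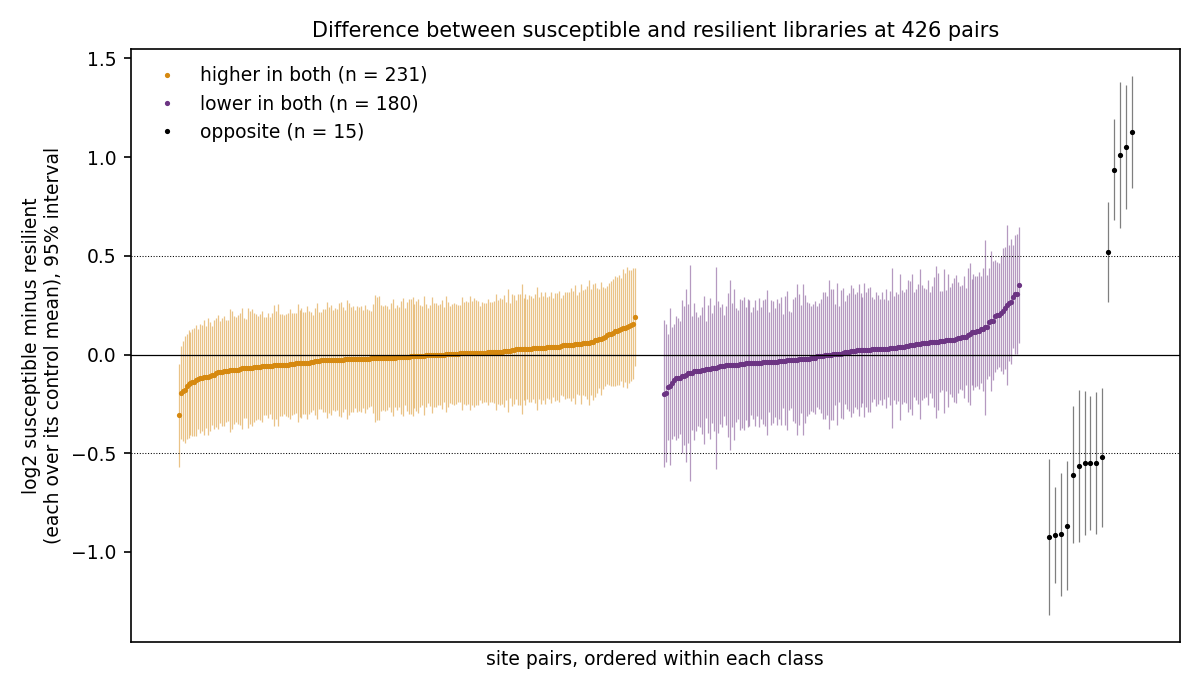
Difference between susceptible and resilient libraries (log2, each over its control mean) with its 95% limma interval at each of 426 pairs, ordered within class. Points of the 411 pairs changed alike run from -0.31 to 0.35, the dotted lines mark 0.5 in either direction, and the sign of the 15 opposite pairs is fixed by the way they were chosen.

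Of the 5 pairs with an unadjusted p under 0.05 in limma, the one with the largest difference was at chr17:39846701-39847200, 0.35 (95% interval 0.06 to 0.64), in an intergenic region below IgG whose 2 rows shared 10.4% of the longer one. The one pair of the 5 that was higher than control in both groups was in Cdh12, a type II cadherin of neurons that joins cells through calcium-dependent contacts. Its site lies in an intron at chr15:20820101-20820500. Susceptible libraries had 92.6, 108, 106 and 123 reads against 81.9, 66.96, 84.6 and 94.6 in controls, and resilient libraries 114, 132, 129 and 112 against 83.2, 67.6, 70.4 and 79.1 in controls. The changes were 0.39 in susceptible and 0.70 in resilient mice, and the ratios of the 2 groups overlapped. The difference was -0.31 (95% interval -0.57 to -0.05), with an adjusted p of 0.587 in limma and an exact two-sided permutation p of 0.0571, where 4 against 4 can reach 0.0286. The 2 rows shared 28.6% of the longer one, so they do not measure the same bases.

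The other 3 pairs had higher susceptible than resilient ratios, were lower than control in both groups and lay below IgG. Near Sfi1 at chr11:3126301-3128000 the difference was 0.29 (95% interval 0.03 to 0.55), at chr17:13550101-13553800 it was 0.30 (95% interval 0.01 to 0.60), and near Tmem125, at the repeat printed above for Gm40237, it was 0.31 (95% interval 0.00 to 0.61). At the Tmem125 locus the susceptible libraries had 868, 687, 996 and 718 reads and the resilient libraries 612, 549.6, 655 and 793. The controls there split, with 620.2, 556, 1703 and 1248 in libraries 49, 52, 55 and 58, so that 2 controls were above every stressed library and 2 were not above any susceptible one. The susceptible change there was -0.34, and 0.017 without control 55. By the naming rule, another 2 intergenic loci, at chr16:69224901-69225500 and chr8:55373301-55374700, differed by 0.19 and 0.20. In the other direction, susceptible ratios were below resilient ones by 0.16 to 0.19 at 5 intergenic loci on chromosomes 1, 3 and 4. At one of them, chr1:95056901-95057800, the ratios of the groups did not overlap: susceptible libraries had 99.9, 98.7, 96.9 and 100.4 reads and resilient libraries 99.9, 95.5, 94.1 and 99.97, but controls of the 2 rows had means of 71.9 and 61.7. The stressed groups were thus at nearly the same level and the control means differed, between rows that share 75% of their bases. The adjusted p at each of these loci was at least 0.703 in limma.

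The threshold between susceptible and resilient libraries was passed by 9 pairs (2.11% of 426), and all 9 were nuclear pairs of opposite direction, where the choice of members fixes the sign. They are given as values. The pair with the most shared bases was intergenic at chr17:4625301-4627300, where the rows coincide over 95.2% of the longer one. Its susceptible libraries had 320.1, 188, 222 and 305 reads and its resilient libraries 568, 319, 486 and 565, against 404, 439, 247 and 214 in controls. A single susceptible library was below all controls and 3 resilient libraries were above them, while 3 susceptible libraries and 1 resilient library lay inside the control range. The changes were -0.33 in susceptible and 0.60 in resilient mice.

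The site in an intron of Dnah7b, an axonemal dynein heavy chain of motile cilia, was covered by several regions. The susceptible region chr1:46158401-46159400 was higher than control, with 99.2, 74.1, 96.9 and 78.8 reads against 66.05, 47.1, 73.9 and 55.99. It overlapped the resilient region chr1:46158001-46159000 that was lower, with 49.4, 43.7, 66.3 and 64.4 against 82.5, 79.7, 88.8 and 72.9 in controls. The same susceptible region also overlapped the resilient region chr1:46158701-46159700, which was higher, with 72.6, 76.1, 76.8 and 76.6 against 66.5, 43.5, 55.97 and 47.3. Over that second pair the groups differed by 0.01, against 1.05 over the first. Control means differed between these regions as well, at 60.8 reads in the susceptible region and 80.97 and 53.3 in the resilient ones. At chr4:67599501-67599600, likewise, the susceptible region was -0.37 and shared 4.55% of the longer row with a resilient region that was higher (0.55), but it shared 85.7% with another resilient region that was lower (-0.40). The difference between the groups was -0.92 over the first and 0.06 over the second.

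At the other nuclear opposite pairs, susceptible was higher and resilient lower in C130026I21Rik (0.24 and -0.29, 58.3% of the longer row shared), near Gm8879 (0.48 and -0.65, 36.4%), at chr13:85453701-85454100 (0.48 and -0.48, 40%) and at chr14:98670501-98670700 (0.44 and -0.52, 14.3%). Elsewhere susceptible was lower and resilient higher at chr6:20101401-20101600 (-0.43 and 0.43, 20%) and at chr5:84857101-84857200 (-0.43 and 0.48, 9.09%). Both predicted genes are named to account for every pair. When at least 50% of each row had to be shared, 4 opposite pairs were left, 1 of them mitochondrial, and 2 passed the threshold in limma. At the edge of the rule, 8 pairs shared the minimum of 100 bp, of which 6 were alike and 2 opposite, and at 7 more places a susceptible and a resilient row abutted with no shared base, 3 with the same and 4 with the opposite direction.

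**Figure D5:**
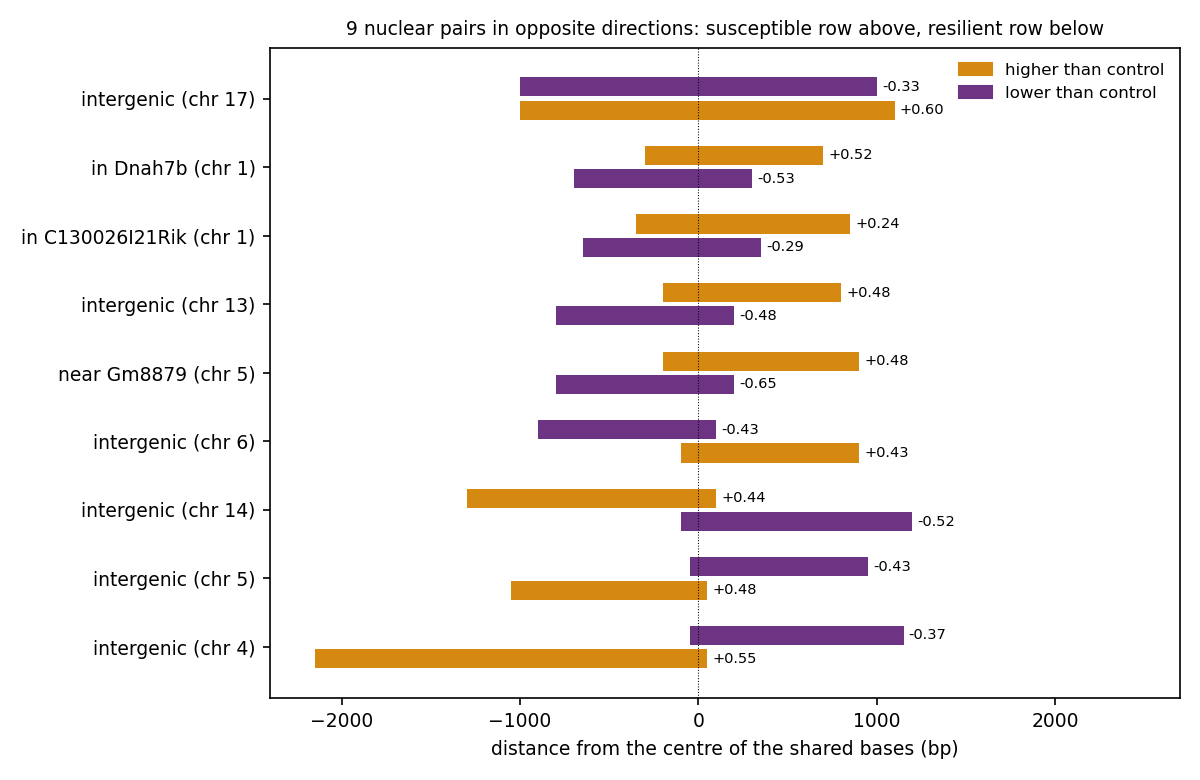
Extent of the susceptible row (upper bar) and the resilient row (lower bar) of each of the 9 nuclear pairs in opposite directions, as distance in bp from the centre of the shared bases, with the log2 change over control beside each bar. The rows coincide at the chromosome 17 pair and share only their ends at the lowest pairs.

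The 6 pairs on the mitochondrial genome were lower in susceptible mice (-0.24 to -0.30) and higher in resilient mice (0.22 to 0.29), and were at 0.01 times IgG in every group. In the pair next to mt-Nd1, susceptible libraries had 1528, 870.1, 1249 and 1527 reads against 2340.3, 1791, 849.9 and 1379.99 in controls, and resilient libraries 507, 426, 591 and 571 against 682, 449, 197 and 388 over their own row. In both tables the controls had both the highest and the lowest value. None of the 6 passed the threshold in limma, where the smallest adjusted p was 0.0750. Mitochondrial DNA is not packed by histones.

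The 15 gene lists with 409 genes covered synapse, receptors, channels, striatal neuron identity, Polycomb enzymes, developmental regulators, stress signalling and markers of other cell types. Of their genes 1 (0.244%) held a common site, Cdh12. Of the 20101 protein-coding genes on the chromosomes with common sites, 52 (0.259%) held one in their bodies. The count in the lists is thus at the background and says nothing about them. No cell type marker gene held a site, so a marker level cannot be read here. With 50% of each row to be shared, no list gene held one. Cdh12 itself had 3 susceptible regions, all higher, and 7 resilient regions, 5 higher and 2 lower. Regions of either table fell in 13 list genes, in 5 of them in both tables. Cntnap5b, a contactin-associated protein, had 4 susceptible regions, all higher, and 9 resilient regions, 8 higher and 1 lower, with no overlap. Cntn6, a contactin of neuronal surfaces, had 3 and 4, all higher. The axon guidance cue Sema3a had 1 susceptible and 3 resilient regions, all higher. Kcnb2, a voltage-gated potassium channel, had 1 susceptible region that was higher and 2 resilient regions that were lower, again at other places in the gene.

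The share of higher regions was lower among common sites than in the rest of each table. Among susceptible regions, 56.01% of members were higher than control, against 72.6% of the regions outside a pair, and among resilient regions 56.6% against 81.8%. Intergenic sequence held 83.9% of susceptible members and 89.8% of the other susceptible regions, and 83.3% of resilient members and 91.1% of the others. By chromosome, chromosome 3 had 44 loci higher and 21 lower in both, chromosome 1 had 37 and 19, and chromosome 4 had 29 and 13. On chromosomes 8, 10 and 11 lower loci were the more frequent, with 7 higher and 16 lower, 8 and 14, and 1 and 12. The lower loci of chromosome 11 include the 5 of Sfi1 and those of the adjacent Drg1, all below IgG. Regions within a chromosome share libraries, so these shares are given without a test.

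H3K27me1, the monomethyl form of the same lysine, was measured in other libraries and took no part in choosing the sites. The authors' H3K27me1 tables listed 4.49% of windows in susceptible and 2.55% in resilient mice. A susceptible H3K27me1 region overlapped 5.53% of the susceptible H3K27me2 members and 0.301% of the other susceptible H3K27me2 regions. For resilient regions the shares were 5.19% and 0.213%. Of the 228 loci higher in both for H3K27me2, 1 overlapped a susceptible H3K27me1 region and 2 a resilient one, all higher. Near Zfp982, a zinc finger gene on chromosome 4, H3K27me1 was 355 ± 42.3 reads in susceptible mice against 302 ± 24.7 in controls, and 365 ± 17.2 in resilient mice against 309.6 ± 24.8 in controls (SD, n = 4 each). Near Amy2a5, a pancreatic amylase gene, it was 82.9 ± 4.47 in resilient mice against 58.1 ± 11.4 in controls. H3K27me2 at these 2 loci was 0.40 and 0.37 higher in susceptible and 0.47 and 0.32 higher in resilient mice. Of the 175 loci lower in both, 20 overlapped a susceptible H3K27me1 region, 17 of them only lower ones, and 16 a resilient region, 13 only lower. Most of these were the loci below IgG, 17 of the 20 and 13 of the 16. At many of these loci, such as the one near Zfp825, the H3K27me1 difference was smaller than the SD between libraries. Elsewhere, as at Tmem267, it was larger. These counts therefore rest on the authors' p-values, which do not include that spread. At Duxf3, H3K27me1 was 723 ± 166 reads in susceptible mice against 867 ± 100.5 in controls at 1 of 2 regions, a difference smaller than the SD of the susceptible libraries. The other region, chr10:58230101-58231100, shares no base with the common interval at chr10:58231701-58233600. H3K27me1 there was 131 ± 21.3 in susceptible mice against 169 ± 9.92 in controls. The overlap counts of loci thus include regions beside the shared bases. At Chl1 the 2 H3K27me1 rows went different ways, 0.03 in susceptible and -0.06 in resilient mice. Both differences were smaller than the SD between libraries, at 21492 ± 2058 reads against 21043 ± 1987 in controls for susceptible mice and 20709 ± 1992 against 21580 ± 2046 for resilient mice (SD, n = 4 each).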

How the data were processed

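CUT&RUN for H3K27me2 was analysed in 12 libraries of 3 groups, and the H3K27me1 tables of the same groups were read at the same sites. Per the submitters' processing notes, the tools were MACS2 2.2.6, SAMtools 1.10, Bowtie2 2.4.1, cutadapt 2.10 and Trim Galore 0.6.5, and the build was mm10. Per the file headers, the authors ran diffReps 1.55.4 with a G-test and an IgG background. The headers give windows of 1000 bp, a step of 100 bp, fragments of 100 bp and a p limit of 0.0001. Deposited G-test p-values of listed regions still reached 0.00423 in the susceptible and 0.00307 in the resilient table. Those of members reached 0.00155 and 0.000786. The deposited group averages are a signal, reads divided by a library constant, and the deposited values per library are on the same scale. The deposited enrichment is a ratio of each group to IgG. The deposited log2 fold change is of stressed over control means. The deposited p-value and adjusted p-value (Benjamini-Hochberg over 48304 and 52728 windows) are the authors'. A G-test pools the libraries of a group, so these p-values do not include the spread between libraries. Only regions the authors listed were analysed.

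Regions overlapping by at least 1 bp were paired and chained into loci, and changes were recomputed as log2 of stressed over control means. Susceptible and resilient libraries were compared with limma 3.58.1 (R 4.3.3) on log2 of (normalised reads + 1) over (control mean + 1), fitted over all 426 pairs with Benjamini-Hochberg adjustment at 0.05. The fit was tested on simulated data. The pseudocount of 1 understates changes of low counts. At 59 pairs of identical regions each control library differed between the tables by a constant factor of 1.01 to 1.03. Genes were taken from the GENCODE mouse annotation for that build, by body overlap first and then by the nearest start within 50000 bp. The 20101 protein-coding genes used are those on the chromosomes with common sites. By the larger of the authors' p-values in the 2 tables, up to 8 loci were named per direction, with ties taken in row order. By the limma p, up to 6 loci changed alike were named per direction, and list genes and genes with 3 or more loci were also named. Predicted genes (27 loci) and mitochondrial loci (2) were outside this rule, and other genes were picked after their values were seen. Members and lists were chosen with earlier results of these data known. Alternatives were other overlaps, filters, scalings, pseudocounts and priors, and leaving out each library. Tables and figures were made with matplotlib 3.10.9, scipy 1.17.1, numpy 2.4.6 and pandas 2.3.3 in Python 3.11.15.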

Additional observations from a re-analysis of the deposited data

Results flagged for a closer look

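At 40 named loci, 160 groups of 4 libraries were searched for a library far from the other 3, and 7 were found. Chance gives about 1 in 20, so the number found is no more than chance gives. The same control libraries were searched once in each table, so the groups are not independent. Control library 52, the shallowest, was the low one in 3 of them: 62 reads at chr1:95056901 and 47.1 at chr13:85453701 in the susceptible table, where the other controls had 73.9 to 75.96 and 68.03 to 71.8, and 48.3 at chr3:132279001 in the resilient table, where the others had 92.7 to 100.02. Resilient library 60 was the high one at 2 loci below IgG, with 2407 reads at Sfi1 against 1795 to 1824 in the other resilient libraries and 3293 near Ly6c2 against 2390.2 to 2461. Susceptible library 59 had 129 reads at chr16:83279101 against 108 to 109 in the other susceptible libraries. Control library 55 had 78.8 reads at chr4:18393501 in the susceptible table, where the other controls had 94.2 to 97.1.

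At 8 nuclear loci of opposite direction, every susceptible library lay on one side of its control mean and every resilient library on the other. The log2 difference of susceptible minus resilient was 1.05 in Dnah7b, 0.52 in C130026I21Rik, 0.94 at chr13:85453701, 1.01 at chr14:98670501 and 1.13 near Gm8879. It was -0.92 at chr4:67599501, -0.91 at chr5:84857101 and -0.87 at chr6:20101401. These signs are fixed by how the pairs were chosen, so the differences are given as values and their calls in limma are not read as a test.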

How the results depend on the processing

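The 9 calls between susceptible and resilient libraries fell to 2 (1 higher, 1 lower) when 50% of both rows had to be shared, with 4 pairs whose libraries did not overlap, 4 opposite pairs and 0 list genes. With only pairs changed alike, 0 passed (0 higher, 0 lower) and 1 did not overlap. Opposite pairs numbered 9 above IgG in all groups or without the mitochondrial chromosome, and 23 without control 55. Without susceptible library 59, 7 calls were lower and 21 pairs did not overlap. Without resilient library 60, 24 did not overlap. Leaving out 1 library at a time, calls ranged from 8 to 12 (higher 4 to 5, lower 4 to 7), pairs without overlap from 13 to 24, opposite pairs from 11 to 23, pairs higher in both from 231 to 235, pairs lower in both from 172 to 180, list genes from 1 to 1 and the median difference from -0.02 to 0.01. Among the loci named by rule, signs turned at 5 when 1 library was left out. Over all 180 pairs lower in both, 8 susceptible changes turned without control 55, and 4 susceptible and 5 resilient changes without control 52, Chl1 and Gm10801 among them. The change at chr12:3109001 was 0.14 in susceptible and 0.15 in resilient mice without control 52, with leave-one-out values from -0.33 to 0.14 and from -0.31 to 0.15. Without control 55 the susceptible change was 0.017 near Tmem125 and 0.00977 at chr17:13550101, against -0.34 and -0.23 with all controls. It was 0.00431 at chr17:39842701 and 0.051 at chr8:55373301, against -0.28 and -0.16 with all controls. Each was the top of its leave-one-out range, and the lower ends were -0.54, -0.42, -0.47 and -0.27 in that order. The cause was not tested. A count test with edgeR on recovered reads was not run. Every library has a number of its own, so the numbers do not say whether libraries of different groups were paired, and no paired analysis was run. Depth and 4 libraries a group limit single sites: the interval of 393 of 411 pairs changed alike stayed within 0.5 of 0, and that of 6 within 0.25.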
